A study of Homo sapiens with 4 samples.

Results

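MHC class I antigen presentation genes were examined for a change in H3K4me3 after treatment of MDA-MB-231 cells with Tat-SID. The 9 genes were HLA-B, HLA-C, HLA-E, HLA-F and HLA-G, which encode class I heavy chains, B2M, which encodes the light chain β2-microglobulin, TAP1 and TAP2, which encode the peptide transporter, and TAPBP, which encodes tapasin. They were given as a list, which does not hold every class I gene, and make up 9 of the 64486 genes in the GENCODE annotation of GRCh37 (hg19), of which 20176 are protein-coding. MDA-MB-231 cells come from a human breast cancer of the triple-negative type and are an established line. Tat-SID is a decoy peptide that joins the SIN3 interaction domain of MAD to the cell-entry sequence of Tat and blocks the PAH2 domain of the SIN3 scaffold. Native ChIP-Seq for H3K4me3, a histone mark of active promoters, was performed on 1 library of untreated cells, 1 library after 1 μM Tat-SID and 1 library after 2.5 μM Tat-SID, beside 1 library of input DNA, and the treatment lasted 3 days by the study text. Untreated cells received no control peptide in this comparison, as far as the labels and methods say.

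The deposited lists hold the regions in which H3K4me3 differed between a treated library and the same untreated library. The list of reduced regions holds 141 regions at 1 μM and 2063 regions at 2.5 μM, and the list of increased regions at 2.5 μM holds 3 regions. Increased regions at the lower dose were not analysed here. Each region is given by its position alone, so the size of a reduction and the depth behind it are not in the sources used here, and with 1 library per condition no difference between conditions was tested. The level of H3K4me3 in untreated cells is not in the lists either, so the identity of the line could not be checked against marker genes. A gene absent from a list did not pass the authors' threshold, which does not show that its H3K4me3 was unchanged.

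Class I molecules are a heavy chain paired with β2-microglobulin and hold a short peptide that is shown to CD8+ T cells at the cell surface. The proteasome makes the peptides in the cytosol, TAP1 and TAP2 carry them into the endoplasmic reticulum, and tapasin holds TAP close to the empty heavy chain until a peptide is bound. Transcription of most, but not all, of these genes is raised by interferon-γ and by NF-κB. At many of them it depends on promoter elements that bind IRF factors, NF-κB and the RFX, CREB and NLRC5 complex. Loss of class I molecules is one way in which tumor cells escape T cells, while NK cells respond to stress ligands of the class I-like family such as MICA and MICB.

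None of the 9 genes had a region with reduced H3K4me3 within 3 kb of a transcription start site (TSS), at 1 μM or at 2.5 μM Tat-SID. The genes have 105 annotated transcripts that start at 81 distinct sites, and 0 of the 81 sites lay within 3 kb of a reduced region at either dose. Counted in the same way over all protein-coding genes, 136 of 20176 (0.674%, exact Clopper-Pearson 95% confidence interval 0.566% to 0.797%) were found with a reduced region at 1 μM and 2178 (10.8%, 10.4% to 11.2%) at 2.5 μM, intervals that cover counting error only. With 9 genes, a count of 0 is near both shares and sets the list apart from neither. No increased region lay on chromosome 6 or chromosome 15, where the 9 genes lie, and 0% of all protein-coding genes (0 of 20176, upper limit 0.0183%) had one within 3 kb.

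The heavy chain genes lay on chromosome 6 at unequal distances from the reduced regions at 2.5 μM Tat-SID. HLA-B (ENSG00000234745.14_11, minus strand, 31321649 to 31334844), a classical class I gene, was the closest of the heavy chain genes. Its gene start was 29.7 kb from a region of 8149 bp (31364551 to 31372699), which covered the gene start of MICA, and the start of its canonical transcript at 31324956 was 39.6 kb away. HLA-C (ENSG00000204525.18_13, minus strand, 31236526 to 31239907), the other classical gene on the list, lay 125 kb from the same region. HLA-E (ENSG00000204592.9_6, plus strand, 30457286 to 30461971), the ligand of the NKG2A receptor of NK cells, lay 124 kb from the region at 30581051 to 30587449, which held the start sites of MRPS18B and PPP1R10. HLA-G (ENSG00000204632.13_10, plus strand, 29794744 to 29798902), known from the placenta, lay 494 kb and HLA-F (ENSG00000204642.14_11, plus strand, 29690552 to 29706305) 596 kb from the region at 30289701 to 30295949, at TRIM39. The 2 nonclassical genes at the telomeric end were thus the farthest of the 9 from a reduced region, and HLA-B and TAPBP the nearest.

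B2M (ENSG00000166710.23_12, plus strand, 45003556 to 45011049 on chromosome 15) has a gene start 35 bp from that of PATL2 on the opposite strand, and neither gene had a reduced region. The nearest region at 2.5 μM was 172 kb away, from 44827301 to 44831199, at EIF3J. TAP1 (ENSG00000168394.13_11, minus strand, 32812986 to 32821593) lay 113 kb and TAP2 (ENSG00000204267.19_16, minus strand, 32789610 to 32806516) 128 kb from the region at 32934601 to 32943799, which held start sites of BRD2 and HLA-DMA. The immunoproteasome genes beside them, PSMB8 and PSMB9, lay 122 kb and 111 kb from the same region. TAPBP (ENSG00000231925.14_13, minus strand, 33267471 to 33282061) has 17 distinct start sites, the most of the 9 genes. One of its internal start sites, at 33272307, was 27.1 kb from the region at 33237651 to 33245249, which held start sites of VPS52, RPS18 and B3GALT4, while its gene start was 36.8 kb away.

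At 1 μM Tat-SID the nearest reduced regions were megabases away. For HLA-B, HLA-C, HLA-E, TAP1, TAP2 and TAPBP this was the same region (6 of 9 genes), from 35884901 to 35890899 on chromosome 6. Its distance was 4.55 Mb from HLA-B, 4.64 Mb from HLA-C and 5.43 Mb from HLA-E. TAP1 lay 3.06 Mb, TAP2 3.08 Mb and TAPBP 2.6 Mb from it. HLA-F and HLA-G lay 4.97 Mb and 5.07 Mb from a region at 24716301 to 24723149, and B2M lay 6.45 Mb from one at 38542151 to 38552199 on chromosome 15. Only 5 of the 141 regions lay on chromosome 6, where the 2.5 μM list had 175, and 0 lay between HLA-F and TAPBP. The median distance at 1 μM was 4640 kb for the 9 genes and 4190 kb for the protein-coding genes between HLA-F and TAPBP. For all protein-coding genes on a chromosome with a region it was 7950 kb, so the listed genes were not unusually far. Both doses were compared with the same untreated library, and the number of regions depends on the depth of each library, so the distances at the 2 doses are given side by side and not compared.

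**Figure D1:**
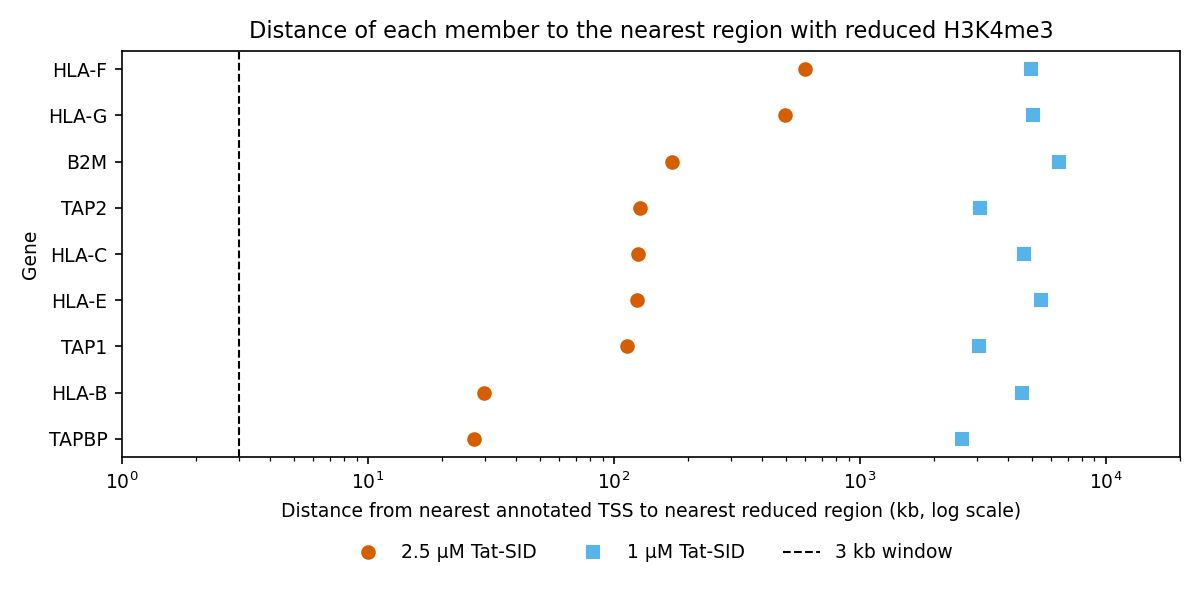
Distance in kb, on a log scale, from the nearest annotated TSS of each of the 9 genes to the nearest region with reduced H3K4me3 at 2.5 μM (circles) and at 1 μM Tat-SID (squares). Each point comes from 1 treated and 1 untreated library, the dashed line marks the 3 kb window, and all points lie to its right, from 27.1 kb for TAPBP to 596 kb for HLA-F at 2.5 μM and from 2600 kb to 6450 kb at 1 μM.

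At 2.5 μM, reduced regions were not scarce in the part of chromosome 6 that holds 8 of the 9 genes. The 9 genes had a longer median distance to one than the protein-coding genes of that part. Between the gene starts of HLA-F and TAPBP, a stretch of 3.59 Mb that holds 8 of the 9 genes, lay 15 reduced regions of 3749 to 12799 bp (median 7449 bp, against 4949 bp for the whole list). Of the 150 protein-coding genes that start in this stretch, 31 carried a reduced region in the 3 kb window (20.7%, exact 95% confidence interval 14.5% to 28.0%), and on all of chromosome 6 it was 197 of 1048 (18.8%). The median distance to a reduced region was 125 kb for the 9 genes, 46.0 kb for the protein-coding genes of the stretch and 380 kb for those of the whole genome that lie on a chromosome with a region. Among the genes of the stretch without a region within 3 kb, the median was 71.6 kb.

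The 31 genes fell into a few clusters. Near HLA-E they were TRIM39 and TRIM39-RPP21 on one side, and MRPS18B, PPP1R10, PPP1R18, NRM, TUBB and MDC1 on the other. MICA and MICB followed HLA-B. In the class III part they were C6orf47, CSNK2B, ENSG00000263020, GPANK1, LY6G5B, DDAH2, MSH5, CLIC1, MSH5-SAPCD1, HSPA1B, AGPAT1, RNF5, AGER, PBX2, GPSM3 and NOTCH4. BRD2 and HLA-DMA in the class II part and VPS52, RPS18 and B3GALT4 before TAPBP made up the rest. Genes in one cluster share regions, so they are not independent of each other, and 2 of the 15 regions had no protein-coding start within 3 kb.

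HLA-E, HLA-B, HLA-C, TAP1 and TAP2 lay in the gaps between these clusters, HLA-F and HLA-G before the first of them and TAPBP after the last. HLA-F and HLA-G shared a gap of 1340 kb without a reduced region, in which 32 protein-coding genes start. HLA-B and HLA-C shared a gap of 673 kb with 19 protein-coding gene starts, and HLA-E lay in one of 285 kb with 6. TAP1 and TAP2 shared a gap of 770 kb with 18, which also holds PSMB8, PSMB9 and several class II genes. TAPBP lay in a gap of 958 kb and B2M, on chromosome 15, in one of 1050 kb. Over the whole list, the median gap between neighbouring regions was 708 kb (quartiles 207 kb and 1800 kb, 2040 gaps), and all 6 gaps around the listed genes fell between these quartiles. The quartiles count each gap once, while a long gap is more likely to hold a given gene. Gaps that hold other genes were not taken as the reference, so this is a description only. Neighbouring genes that share a gap are 1 position in the data and not separate observations.

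**Figure D2:**
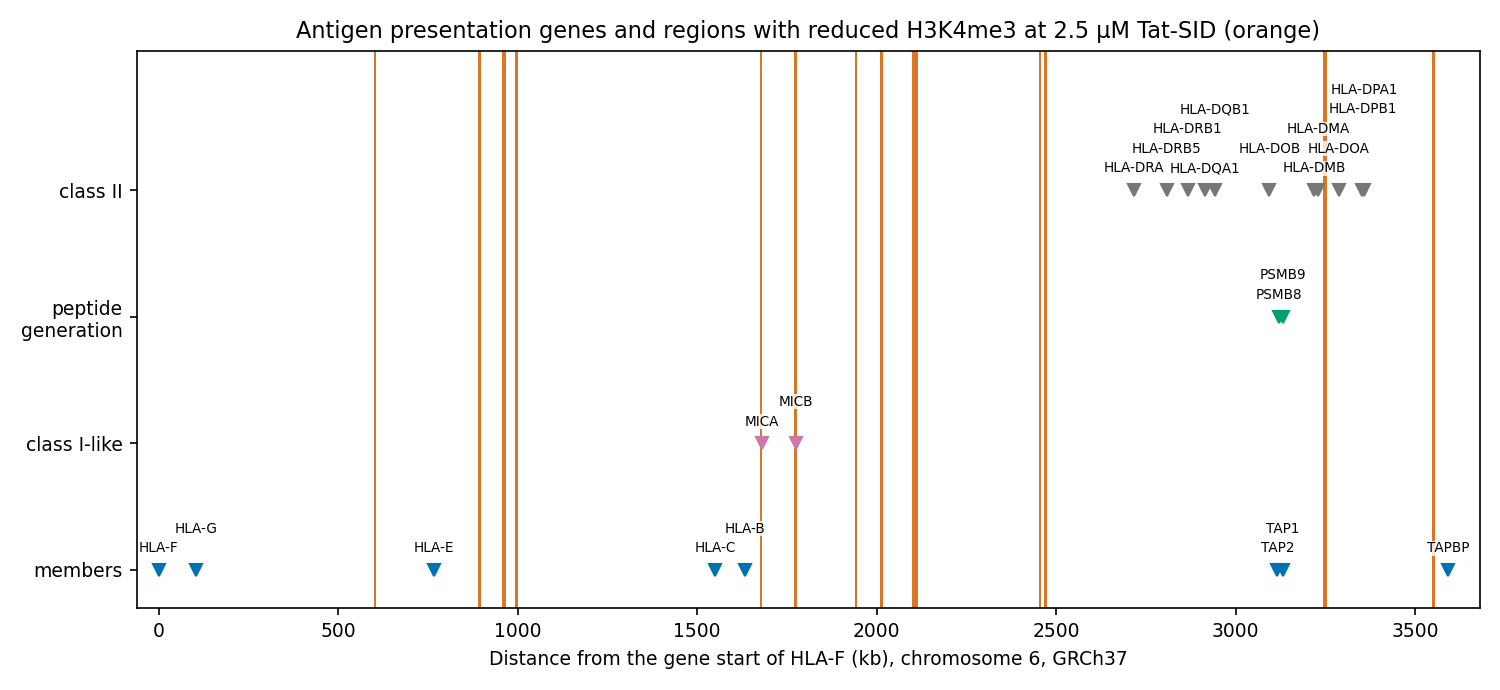
Positions along chromosome 6, in kb from the gene start of HLA-F, of the canonical transcript starts of the 8 listed genes in this stretch and of class I-like, peptide generation and class II genes (triangles), with the 15 regions reduced at 2.5 μM Tat-SID as orange lines at their true width. MICA and MICB sit on orange lines. HLA-E, HLA-B, HLA-C, TAP1 and TAP2 sit between lines, HLA-F and HLA-G before the first line and TAPBP after the last.

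MICA and MICB, class I-like genes whose products are stress ligands of the NKG2D receptor, were the nearest genes to HLA-B with reduced H3K4me3. The MICA region of 8149 bp reached from -3010 bp to 5138 bp relative to the gene start at 31367561, and was longer than 91.1% of the regions at 2.5 μM. It also covered the start of the canonical transcript at 31371372 and held its exon 1. The MICB region of 8749 bp (31459501 to 31468249) reached from -3157 bp to 5591 bp relative to its gene start at 31462658, covered the canonical start at 31465922 with exon 1, and was longer than 92.9% of the regions. Neither overlapped a region reduced at 1 μM. MICA and MICB are close copies, and within 3 kb of their canonical starts 4.25% and 4.61% of the 100-base sequences, the length of a read, occur more than once in GRCh37. For the 9 genes the share was between 0% and 0.949% at the canonical start, with HLA-F highest. At HLA-F, MICA and MICB the gene start is not the canonical start. Around the gene start the order of these genes turned, with 5.18% at HLA-F, 0.864% at MICA and 0.83% at MICB. The part of such reads in the result was not tested. Only exact copies were counted, while the alignment allowed up to 2 mismatches in the seed, so near copies are missing from these shares.

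Promoters are shown as the 250 bases before the RefSeq start, from HLA-B, B2M and TAP1 as examples of a heavy chain, the light chain and the transporter, and from MICA and MICB, which were picked because they had a region. RefSeq sequences of GRCh38.p14 were used, and each matched GRCh37 exactly at 1 place, at chr6:31324957-31325206 for HLA-B (minus strand), chr15:45003465-45003714 for B2M (plus), chr6:32821482-32821731 for TAP1 (minus), chr6:31371122-31371371 for MICA (plus) and chr6:31465672-31465921 for MICB (plus). Capitals mark matches, on either strand, to an interferon response element-like motif (GAANNGAAA), a κB-like motif of 10 bases, an X2-like motif (TGACGC), a Y-like motif (CCAAT) and a GC box (GGGCGG), and matches that overlap run together. The letters GAANNGAAA have GAA before the free bases NN, and sites with a longer run of A there were not searched. Such sites stay in lower case, as gaaactgaaa in B2M and, on the other strand, tttcgctttc in TAP1.
HLA-B: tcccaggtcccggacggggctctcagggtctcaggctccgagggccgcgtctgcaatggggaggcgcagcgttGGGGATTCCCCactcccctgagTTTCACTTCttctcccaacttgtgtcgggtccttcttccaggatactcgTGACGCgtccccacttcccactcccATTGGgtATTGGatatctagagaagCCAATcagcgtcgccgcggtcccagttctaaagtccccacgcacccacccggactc
B2M: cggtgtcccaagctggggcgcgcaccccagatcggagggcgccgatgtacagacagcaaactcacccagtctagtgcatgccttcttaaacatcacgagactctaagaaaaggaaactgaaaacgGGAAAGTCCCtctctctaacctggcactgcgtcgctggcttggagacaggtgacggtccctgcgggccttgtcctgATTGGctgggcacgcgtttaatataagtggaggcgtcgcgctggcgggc
TAP1: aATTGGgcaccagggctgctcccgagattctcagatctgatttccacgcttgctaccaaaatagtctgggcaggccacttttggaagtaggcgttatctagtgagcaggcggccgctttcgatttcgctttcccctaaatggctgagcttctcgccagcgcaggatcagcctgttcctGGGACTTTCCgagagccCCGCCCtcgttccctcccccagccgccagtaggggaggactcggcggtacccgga
MICA: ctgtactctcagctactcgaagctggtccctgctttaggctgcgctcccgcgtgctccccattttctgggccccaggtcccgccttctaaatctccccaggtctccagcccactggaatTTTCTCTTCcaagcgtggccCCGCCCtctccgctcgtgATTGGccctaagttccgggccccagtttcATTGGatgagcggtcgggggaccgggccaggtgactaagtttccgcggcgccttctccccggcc
MICB: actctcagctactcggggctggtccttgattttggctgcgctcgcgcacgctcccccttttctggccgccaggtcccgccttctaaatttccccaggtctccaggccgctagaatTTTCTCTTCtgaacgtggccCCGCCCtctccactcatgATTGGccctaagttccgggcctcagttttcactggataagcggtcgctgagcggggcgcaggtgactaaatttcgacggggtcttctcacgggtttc

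Of the 35116 promoters of the RefSeq table, 6.56% held the interferon response element-like letters in these 250 bases, 4.46% the κB-like, 7.67% the X2-like and 42.6% the GC box letters, while 11240 promoters held the Y-like letters. The 6.56% is for GAANNGAAA alone and leaves out sites with a longer run of A before the free bases. HLA-B held all but the GC box, with the κB-like match on both strands from -177, the interferon response element-like match from -155 and the X2-like match from -106, counted from the start site. HLA-C held all 5. TAP2 held the interferon response element-like, X2-like and GC box letters, and B2M the κB-like and Y-like letters. TAP1 has 2 RefSeq starts. Its window before 32821481, shown above, held κB-like, Y-like and GC box letters, and that before 32820538 only a GC box. Among the motifs searched, HLA-F held only Y-like matches. HLA-G has 3 RefSeq starts, and only the window before 29795602 held matches, 1 Y-like and 1 GC box. TAPBP held 3 GC boxes. MICA and MICB each held 1 interferon response element-like match, with Y-like and GC box matches. A match is a description of letters, and its absence from this window says nothing about the binding of a factor. It also does not show that B2M, TAP1, HLA-F or TAPBP lack an interferon response element. Their windows hold similar letters with a longer run of A, which were not counted. At 7 of the 9 genes the canonical start lay in a CpG promoter (GC content over 50% and ratio of observed to expected CpG over 0.6 within 1 kb), the exceptions being TAP2 with a ratio of 0.588 and TAPBP with 0.53. Around the gene start, 4 of the 9 genes met these limits. Among protein-coding genes, 14.8% of 9432 with a CpG promoter at the gene start and 7.3% of 10666 others had a reduced region at 2.5 μM.

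**Figure D3:**
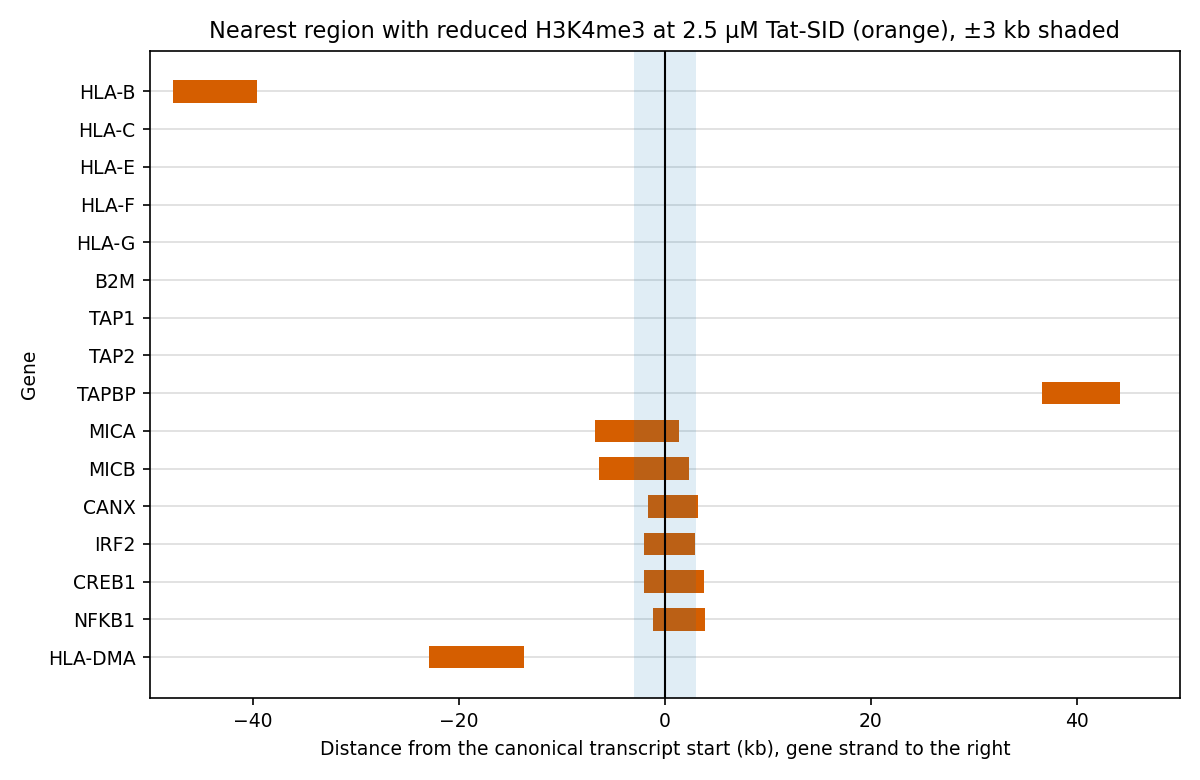
Nearest reduced region in the 2.5 μM list (orange bars) around the canonical transcript start of the 9 listed genes and of 7 related genes with a region within 3 kb of a TSS, in kb, with the direction of transcription to the right and the 3 kb window shaded. Nearest regions over 50 kb away are not drawn. The window is empty for the listed genes and partly covered for MICA, MICB, CANX, IRF2, CREB1 and NFKB1. The region of HLA-DMA lies 13.7 kb upstream of its canonical start.

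Of 28 related genes, which are the peptide generation, loading chaperone, transcription regulator and class I-like lists together, 6 had a reduced region at 2.5 μM Tat-SID and 0 at 1 μM. MICA and MICB, 2 of the 6, are class I-like genes and take no part in peptide presentation. The 28 genes were chosen with earlier results of these data known, and their share of 21.4% may be read beside the 10.8% of all protein-coding genes only as a description. None of the 7 peptide generation genes had a region. ERAP2, an aminopeptidase that trims peptides in the endoplasmic reticulum, was the closest at 19.7 kb, and PSME1 and PSME2, subunits of the proteasome activator PA28, were the farthest at 1040 kb and 1050 kb.

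Among the 4 loading chaperone genes, CANX had a region. It encodes calnexin, which binds newly made heavy chains, and the region of 4899 bp on chromosome 5 (179124301 to 179129199) covered the canonical start at 179125968 but began 18672 bp downstream of the annotated gene start. CALR (199 kb), PDIA3 (426 kb) and TAPBPL (30.9 kb), which encode calreticulin, ERp57 and the tapasin-related editor TAPBPR, had none.

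Among the 11 transcription regulators, IRF2, CREB1 and NFKB1 had a region over the gene start. IRF2 encodes an interferon regulatory factor, and its region on chromosome 4 (185392751 to 185397699, 4949 bp) spanned -1987 bp to 2961 bp around the gene start. CREB1 encodes a factor of the class I promoter complex, and its region on chromosome 2 (208392701 to 208398499, 5799 bp) spanned -1760 bp to 4038 bp around the gene start. NFKB1 encodes the p50 subunit of NF-κB, and its region on chromosome 4 (103421351 to 103426449, 5099 bp) spanned -1136 bp to 3962 bp around the gene start. These regions each held exon 1, and none overlapped a region reduced at 1 μM. NLRC5, the class I transactivator, lay 54.0 kb from a region, RFX5 143 kb, RELA 151 kb and IRF1 452 kb. RFXANK, RFXAP and CIITA lay 1780 kb, 2210 kb and 6060 kb away.

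Besides MICA and MICB, the class I-like list held MR1, which presents microbial metabolites, at 9.81 kb from a region, HFE, a regulator of iron uptake, at 29.3 kb, FCGRT, the neonatal Fc receptor, at 124 kb and CD1D, which presents lipids, at 828 kb. Of the 12 class II genes, HLA-DMA alone had a region within 3 kb of a TSS (8.33%). That region of 9199 bp (32934601 to 32943799) covered an annotated start of HLA-DMA at 32936871 next to the start of BRD2, and lay 13.7 kb from the start of the canonical HLA-DMA transcript at 32920874. It cannot be told from the lists which of the neighbouring start sites carried the reduction. The remaining 11 class II genes lay between 25.8 kb (HLA-DMB) and 665 kb (CD74, the invariant chain) from a region.

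**Figure D4:**
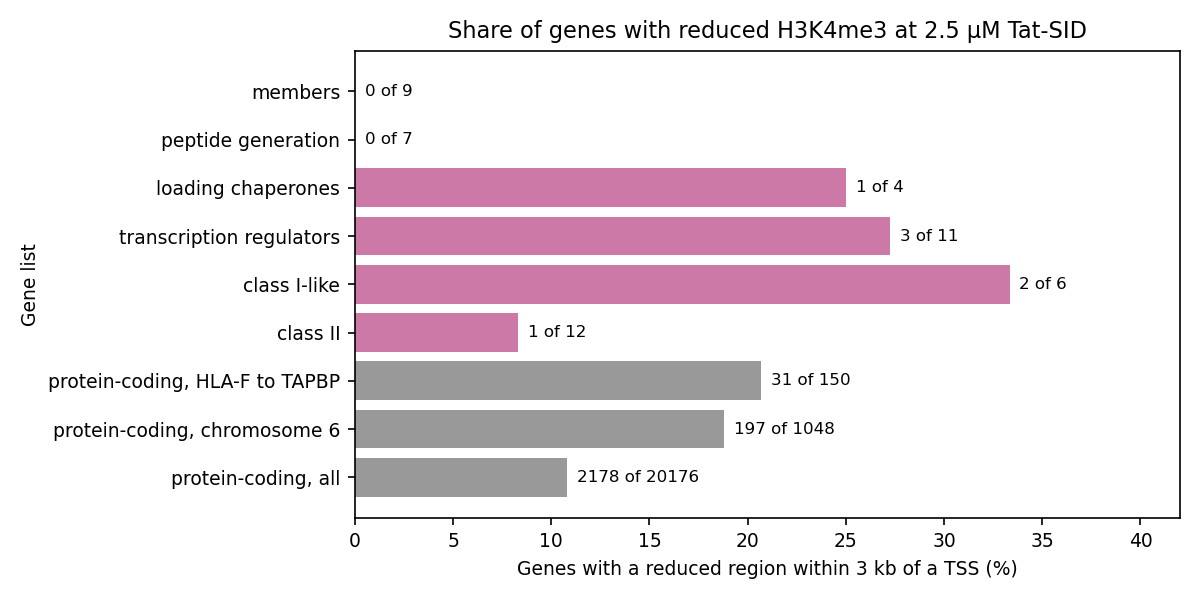
Percentage of genes with a region reduced at 2.5 μM Tat-SID within 3 kb of a TSS in the listed genes (members), in 5 related lists and, in grey, in protein-coding genes between HLA-F and TAPBP, on chromosome 6 and in the genome, with the counts beside the bars. The listed genes (0 of 9) and the peptide generation genes (0 of 7) have no bar, and the related lists reach up to 33.3% for the 6 class I-like genes.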

How the data were processed

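Native H3K4me3 ChIP-Seq libraries, 1 from untreated cells and 1 for each dose of Tat-SID, were sequenced by the authors in single-end reads of 100 bases, checked with FastQC (0.10.0), aligned to hg19 with Bowtie (1.0.0, seed of 70 bases with up to 2 mismatches, reads with over 20 placements dropped, 1 placement kept) and compared with SICER-df (window 50 bp, gap 400 bp). HLA genes vary between people, and reads with more seed mismatches to the reference than allowed were not placed. How many were lost here was not tested. The threshold for differences is an FDR of 1e-08 in the methods and 1e-15 in the results and in the names of the lists. The deposited lists hold positions only, with no count, ratio or score, so depth is not given in the sources used here.

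Starts were read from 0 and are printed from 1. The 2207 regions carried GRCh37 chromosome names and none ended beyond its chromosome. Genes and TSS came from GENCODE release 44 on GRCh37. A gene was counted when a region reached within 3 kb of its gene start or of any transcript TSS. All 9 listed genes are named, together with the fixed related lists and each protein-coding gene between HLA-F and TAPBP with a region, and 1 gene of these lists is not reported here. The genes and lists were chosen with earlier results of these data known. No test between conditions or set test was run. The code that measures distances was checked on simulated positions with known distances. Repeated 100-base sequences were counted as exact matches on both strands of the genome. Promoters came from a RefSeq table of GRCh38.p14, which matched 8 of the 9 genes by symbol, all but HLA-E, and were placed on GRCh37 by exact sequence. Alternatives were other TSS windows, gene starts only, protein-coding transcripts only, a minimum region length, merged regions and other background genes. The software was matplotlib 3.10.9, pysam 0.24.0, scipy 1.17.1, pandas 2.3.3 and numpy 2.4.6 under Python 3.11.15.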

Additional observations from a re-analysis of the deposited data

How the results depend on the processing

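The count of listed genes with a reduced region was 0 at 1 μM and at 2.5 μM Tat-SID, and that with an increased region 0, with windows of 1 kb or 10 kb, with regions that cover a TSS base, with gene starts or protein-coding transcripts only, with regions of at least 1000 bp and with regions within 3000 bp merged. Narrower windows, fewer start sites or fewer regions could not raise a count of 0. With the nearest TSS 27.1 kb from a reduced region at 2.5 μM, the 10 kb window and the merging could not raise it either. These settings are therefore no test of the result. A window of 100 kb on each side, chosen after the distances were seen, gave 2 of the 9 genes at 2.5 μM (HLA-B and TAPBP), 12 of the 28 related genes and 5 of the 12 class II genes, beside 24.2% of all protein-coding genes, 65.3% of those between HLA-F and TAPBP and, at 1 μM, 1.33% of all protein-coding genes, because a wider window takes in more. The share of protein-coding genes with a reduced region at 2.5 μM, 10.8%, was 11.6% with 10 kb, 9.5% with gene starts only, 5.3% over all annotated genes and 18.8% on chromosome 6. At 1 μM, 0.674% became 0.496% with gene starts only, 0.36% over all annotated genes and 0.477% on chromosome 6. The remaining settings left these shares within their 95% confidence intervals. The 6 related genes with a region became 5 with gene starts only, without CANX, and 7 with 10 kb, with MR1. A stricter FDR could not be tried on lists of positions. No paired analysis was possible because the series has 1 library for each condition and its lists were set beside each other without a test. Depth is not in the sources used here, and a reduction at these genes that missed the authors' threshold would not be seen in the lists.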
